A study of Mus musculus with 12 samples.

Results

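The 41 genes described here act in the G2 phase of the cell cycle and in mitosis. They were taken by symbol from the annotated genes of the deposited table, and all 41 were matched, of 33625 genes in all. They were measured by RNA sequencing in MODE-K, a mouse cell line labelled as wild type and as small intestine epithelium. The cells were grown in culture flasks and exposed to a cobalt gamma source. Of the 12 libraries, 3 came from control cells given 0 Gy and collected at 0 h, 3 from cells collected 48 h after a dose of 4 Gy, 3 from cells at 24 h after a dose of 12 Gy and 3 from cells at 48 h after that dose. All groups are the same line, and the controls were collected at 0 h only, so radiation and time in culture cannot be told apart in any comparison with them. The labels speak of 3 parallel experiments per dose without saying whether they were separate cultures, so p-values here reflect library-to-library spread, part of which may be technical.

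A cell enters mitosis when cyclin-dependent kinase 1 (Cdk1), bound to a B-type cyclin, is switched on by CDC25 phosphatases. Aurora and Polo-like kinases then help to build the spindle, the spindle checkpoint holds the cell until its chromosomes are attached, and Cdc20 activates the anaphase-promoting complex, which marks securin and cyclin B for destruction. Many of these genes are transcribed late in the cycle by the MuvB complex together with B-MYB and FOXM1, and are repressed after DNA damage through p53, p21 and the DREAM complex. In the intestine, dividing crypt cells are known for their sensitivity to radiation. In RNA from whole cultures, fewer cells in a phase and less RNA per cell cannot be told apart.

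Library totals ran from 3616416 to 4831641 reads, the highest in control replicate 1. All 41 G2/M genes passed the filter on low counts, as did 15086 genes in all, and a member had 15 to 1057 reads in a library. The identity of the line was less clear: Epcam and Cdh1, which define epithelial cells, had 2 reads each over the 12 libraries, Vil1 had 3, and Lgr5, Olfm4, Cdx1, Muc2, Alpi and Cldn7 had 0. Of 18 epithelial markers, 6 were at 0 and 3 averaged at least 1 CPM (reads scaled to a common library total). These 3 were Krt20 (4.23 to 15.8 CPM over the libraries), Krt18 (1.32 to 16.2) and Cdx2 (0.276 to 2.24). Summed over the 18, the level was 9.0 to 12.7 CPM in controls and 13.1 to 16.8 after 4 Gy. It was 19.5 to 26.4 at 24 h and 23.4 to 26.0 at 48 h after 12 Gy. The 10 mesenchymal markers, led by Vim, summed to 691 to 1120 CPM in controls and 1240 to 1720 after 4 Gy. The sum was 2280 to 2720 at 24 h and 1470 to 2010 at 48 h after 12 Gy. Of these 10, 5 averaged at least 1 CPM, Lum was at 0, and Col3a1, Acta2 and Thy1 had 8, 2 and 1 reads. The summed level of 7 immune markers, of which Ptprc, Cd3e and Adgre1 were at 0, was 7.64 to 14.5 CPM over all libraries, and that of 4 endothelial markers was at most 1.11. The epithelial and mesenchymal sums move with the groups, and their part in the results was not tested.

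The choice of scaling matters for every comparison with the controls. Loci that the deposited table calls new took 19.8% to 21.7% of the reads in controls, 15.1% to 16.9% after 4 Gy, 14.0% to 15.1% at 48 h and 11.9% to 12.0% at 24 h after 12 Gy. In a fit scaled over all genes, the median known gene was therefore 0.23 higher than in controls on the log2 scale at 24 h after 12 Gy, 0.20 higher at 48 h and 0.14 higher after 4 Gy. In a second fit, restricted to 9816 known genes, these medians were -0.002, 0.009 and -0.011. Values below are from the fit over all genes, and the fit over known genes only is given beside each call. Values per library are CPM scaled by edgeR's TMM factors and are given for replicates 1, 2 and 3 in turn. Where the groups of a called gene are said not to overlap, the gene was picked by the same test. Such remarks describe the values and are no further support.

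Of the 41 genes, 4 were lower at 24 h after 12 Gy than in controls in both fits: Cenpf, Mki67, Foxm1 and Ckap2. The 3 that were higher in both fits were Cdc25b, Anln and Prc1. Another 8 were higher in the fit over all genes alone, among them cyclin B1 (Ccnb1). In that fit 11 of 41 genes rose (26.8%) and 4 fell (9.76%), beside 18.5% and 29.4% of all genes tested and 26.5% and 3.99% of the known genes in it. With known genes only, 3 rose (7.32%) and 4 fell (9.76%), beside 9.15% and 7.91%. The median log2 change of the 41 genes was 0.20 beside 0.23 for known genes, and -0.04 beside -0.002 with known genes only. These shares rested in part on control replicate 1. Without it 19 of the 41 genes rose (46.3%) and 3 fell (7.32%) in the fit over all genes, and their median was 0.41 beside 0.26 for known genes. That fit called 7567 of 15681 genes tested in either direction, against 7238 of 15086 with all 12 libraries.

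Cenpf, a large protein of the outer kinetochore that accumulates in G2, had 65.3, 78.6 and 80.6 scaled CPM in controls and 45.4, 44.1 and 42.6 at 24 h after 12 Gy. The groups did not overlap, and the log2 change was -0.76 ± 0.14 (SE, 3 libraries a group; edgeR quasi-likelihood test, adjusted p 0.000269), or -1.001 with known genes only (adjusted p 0.000141). Mki67, which coats mitotic chromosomes and is the usual marker of proliferating cells, had 27.9, 30.5 and 24.4 in controls and 15.4, 18.7 and 14.6 at 24 h. It fell by 0.76 ± 0.16 on the log2 scale (edgeR adjusted p 0.000918), or by 1.00 with known genes only (adjusted p 0.000401). All 3 irradiated libraries lay below all 3 controls for both genes, and both calls held without any 1 of the 6 libraries, with adjusted p up to 0.00633 for Cenpf and 0.0184 for Mki67.

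Foxm1, the forkhead factor that drives transcription of many G2/M genes, had 42.8, 26.9 and 27.6 scaled CPM in controls and 26.8, 20.7 and 13.1 at 24 h. The highest irradiated library nearly met the lowest control, and both groups were wide. The log2 change was -0.68 ± 0.24 (edgeR adjusted p 0.0257), and -0.92 with known genes only (adjusted p 0.0113), but the call was lost without control replicate 1 (0.174) or without replicate 2 (0.102) or 3 (0.25) of the irradiated group. Ckap2, a spindle-associated protein, had 50.9, 49.7 and 54.9 in controls and 38.5, 38.9 and 42.0 at 24 h. The groups were narrow and apart, and the log2 change was -0.38 ± 0.12 (edgeR adjusted p 0.0185), or -0.62 with known genes only (adjusted p 0.00201). The Ckap2 call was lost without control replicate 2 (0.0662) or 3 (0.149), and without irradiated replicate 1 (0.0771), 2 (0.19) or 3 (0.107). It was also lost by DESeq2 (-0.34, adjusted p 0.0611) and without the filter on low counts (-0.23, edgeR adjusted p 0.256).

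Among the genes that rose, Cdc25b, the phosphatase that starts Cdk1 activation and restarts the cycle after a G2 arrest, changed most. It had 40.0, 35.9 and 28.1 scaled CPM in controls and 52.5, 70.3 and 83.1 at 24 h, a log2 change of 0.98 ± 0.17 (edgeR adjusted p 0.000167), or 0.74 with known genes only (adjusted p 0.00474). Each irradiated library was above each control, and the irradiated ones spread more widely. Prc1, which bundles the microtubules of the central spindle, had 48.1, 32.8 and 24.4 in controls and 61.0, 68.1 and 67.4 at 24 h (log2 change 0.89 ± 0.23, edgeR adjusted p 0.00403, and 0.65 with adjusted p 0.0476 for known genes only). Anln, the scaffold of the contractile ring at cytokinesis, had 32.7, 24.8 and 25.7 in controls and 45.1, 47.4 and 47.5 at 24 h (0.74 ± 0.17, edgeR adjusted p 0.00181, and 0.51 with adjusted p 0.0407). For both genes the spread lay in the controls, while the irradiated libraries were close to each other. These 3 calls held without any 1 library.

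The other 8 genes that rose in the fit over all genes missed the threshold with known genes only, where their log2 changes were still above 0. Ccnb1, the cyclin that partners Cdk1 at mitotic entry, had 53.7, 34.3 and 30.01 scaled CPM in controls and 60.0, 65.3 and 82.8 at 24 h. Its log2 change was 0.81 ± 0.22 (edgeR adjusted p 0.00666), and 0.57 with known genes only (adjusted p 0.0719). Control replicate 1 was well above the other controls here, as it was for many of these genes. Ect2, the exchange factor that activates RhoA for cytokinesis, had 11.8, 6.15 and 9.11 in controls and 14.6, 14.3 and 17.5 at 24 h (0.76 ± 0.24, edgeR adjusted p 0.0154, against 0.129 with known genes only). Kif23, a central-spindle kinesin, had 14.0, 16.1 and 14.7 in controls and 22.8, 24.8 and 19.5 at 24 h (0.59 ± 0.16, edgeR adjusted p 0.00598, against 0.133). Both sets of irradiated values were above all controls.

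Cdc20, the activator of the anaphase-promoting complex, had 61.9, 45.1 and 33.5 scaled CPM in controls and 66.9, 66.7 and 69.1 at 24 h (0.52 ± 0.17, edgeR adjusted p 0.0202, against 0.244 with known genes only). Cenpa, the histone variant that marks centromeres, had 75.9, 70.7 and 53.0 in controls and 79.6, 94.8 and 109 at 24 h (0.50 ± 0.16, edgeR adjusted p 0.0178, against 0.249). In both, the lowest irradiated library was only slightly above the highest control. Kif20a, a kinesin of cytokinesis, had 35.7, 23.3 and 23.6 in controls and 36.1, 45.2 and 39.7 at 24 h (0.54 ± 0.19, edgeR adjusted p 0.0278, against 0.268), and its call was lost without control replicate 2 (0.0583) or 3 (0.0548). The cyclins Ccna2 and Ccnb2 rose by 0.59 (edgeR adjusted p 0.0352) and 0.68 (adjusted p 0.0306). With known genes only their adjusted p was 0.261 and 0.208. The Ccna2 call was lost without control replicate 2 (0.075) or 3 (0.0624) or irradiated replicate 1 (0.0809), and the Ccnb2 call without control replicate 2 (0.0596) or 3 (0.0733), so the cyclin calls other than Ccnb1 each rested on single libraries.

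**Figure D1:**
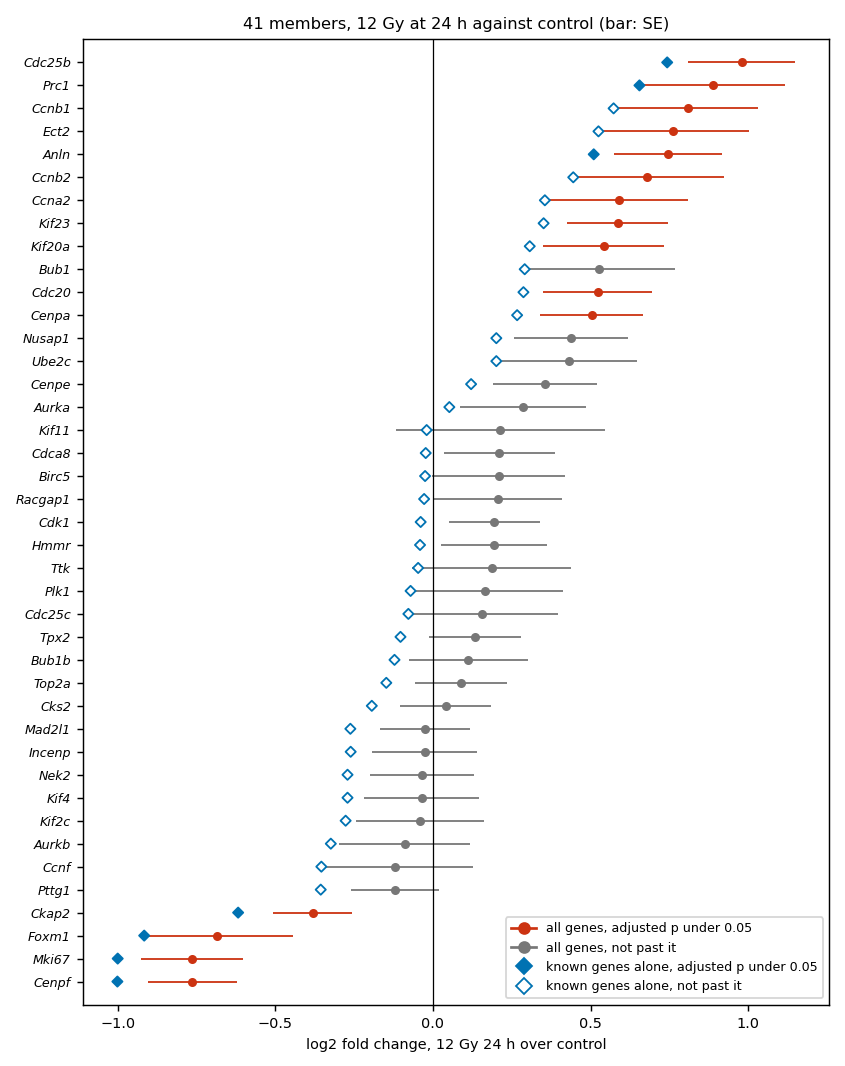
Log2 change of each of the 41 genes at 24 h after 12 Gy against controls (horizontal axis, log2 units), with genes by row, for the fit over all genes and the fit over known genes only and bars for the standard error. Cenpf and Mki67 lie farthest to the left, Cdc25b farthest to the right, and the whole set of points shifts left when known genes only are used.

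The start regions of 6 of the 7 genes called in both fits at 24 h (Foxm1 had no entry) are printed because late-cycle genes are known for a pair of short elements near the start: the cell cycle genes homology region, searched here as TTTGAA or TTCGAA, and the CCAAT box, each on both strands. The sequences are from RefSeq (GRCm38.p6), 170 bases before to 30 after the annotated start, 5′ to 3′ on the strand of the gene, with matches on either strand in capitals. The Cenpf window is chr1:189688057-189688256 (minus strand), Mki67 chr7:135716350-135716549 (minus), Ckap2 chr8:22185790-22185989 (minus), Cdc25b chr2:131186778-131186977 (plus), Anln chr9:22389177-22389376 (minus) and Prc1 chr7:80294281-80294480 (plus). The first 3 genes fell and the last 3 rose.
Cenpf promoter: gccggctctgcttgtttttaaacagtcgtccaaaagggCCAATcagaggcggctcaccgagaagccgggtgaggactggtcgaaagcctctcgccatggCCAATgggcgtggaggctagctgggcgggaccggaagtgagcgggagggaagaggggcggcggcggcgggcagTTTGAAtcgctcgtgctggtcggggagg
Mki67 promoter: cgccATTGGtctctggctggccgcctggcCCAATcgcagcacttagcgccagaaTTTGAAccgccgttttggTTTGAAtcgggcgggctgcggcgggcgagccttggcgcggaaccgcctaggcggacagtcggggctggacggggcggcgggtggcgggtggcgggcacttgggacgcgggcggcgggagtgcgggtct
Ckap2 promoter: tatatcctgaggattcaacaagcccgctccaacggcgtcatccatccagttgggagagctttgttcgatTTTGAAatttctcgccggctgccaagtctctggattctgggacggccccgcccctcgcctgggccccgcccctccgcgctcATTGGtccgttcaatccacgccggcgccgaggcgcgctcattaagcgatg
Cdc25b promoter: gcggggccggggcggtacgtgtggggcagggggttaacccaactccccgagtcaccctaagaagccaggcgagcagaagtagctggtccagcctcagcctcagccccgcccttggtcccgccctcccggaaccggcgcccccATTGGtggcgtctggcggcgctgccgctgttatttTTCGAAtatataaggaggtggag
Anln promoter: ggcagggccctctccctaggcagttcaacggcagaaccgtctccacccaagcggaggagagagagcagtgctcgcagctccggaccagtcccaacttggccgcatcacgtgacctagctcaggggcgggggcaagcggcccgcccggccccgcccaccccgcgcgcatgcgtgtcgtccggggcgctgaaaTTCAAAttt
Prc1 promoter: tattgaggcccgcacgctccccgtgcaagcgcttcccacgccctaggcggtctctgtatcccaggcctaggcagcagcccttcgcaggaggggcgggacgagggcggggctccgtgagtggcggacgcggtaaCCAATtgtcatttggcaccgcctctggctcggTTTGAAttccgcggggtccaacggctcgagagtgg

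All 6 printed windows hold a homology region element and 5 hold a CCAAT box, Anln being the exception. The Cdc25b element is the TTCGAA version, and the other 5 genes have TTTGAA on 1 strand or the other. Over the full RefSeq windows (250 bases before to 50 after the start), 34 of the 41 genes had an entry, with 36 windows. TTTGAA or TTCGAA stood in 28 of the 36 (77.8%), beside 19.2% of 32851 mouse promoter windows of the same length. CCAAT stood in 30 (83.3%), beside 37.4%. Both stood in 26 (72.2%), beside 7.52%. Windows of Nek2, Nusap1, Cenpe, Mad2l1, Pttg1, Birc5, Cks2 and Ccnb1 held neither TTTGAA nor TTCGAA. A match is a string of letters and not a shown binding site, and nothing is drawn from its absence. Ccna2, Cdc25c, Aurkb, Kif20a, Tpx2, Incenp and Foxm1 had no entry.

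**Figure D2:**
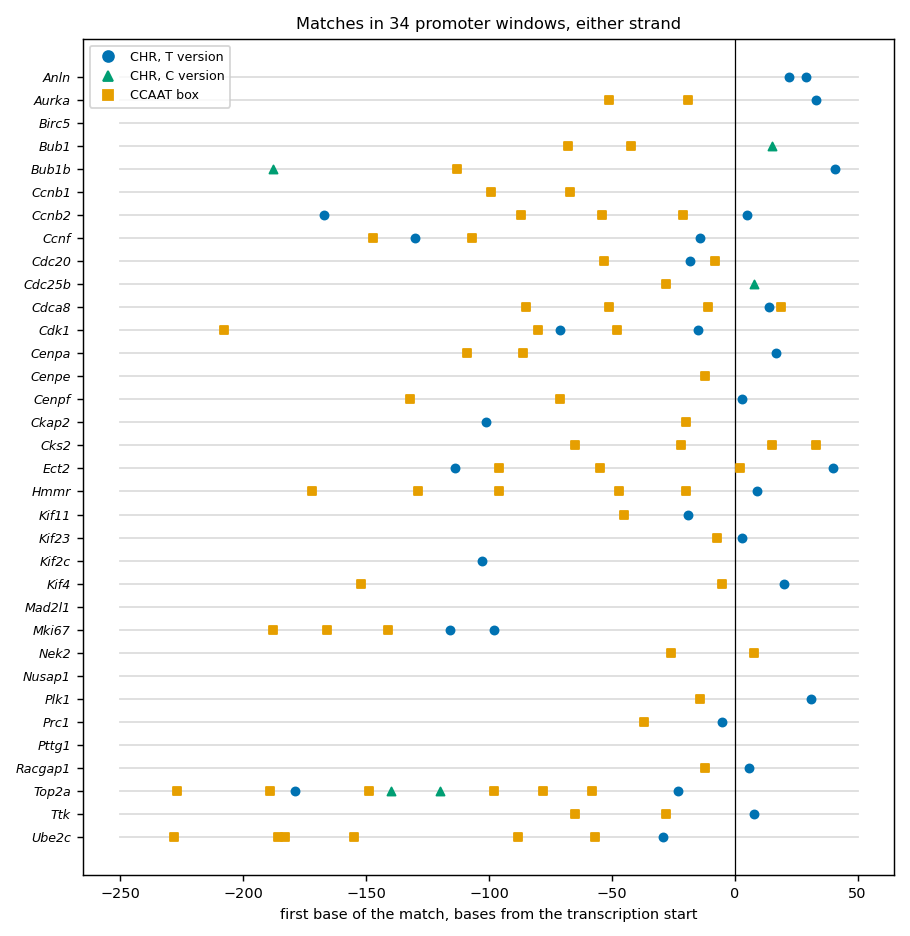
Position of each match to the searched elements (horizontal axis, bases from the annotated start) in 1 promoter window for each of 34 genes, with symbols for the element. Matches of the T version of the homology region lie mostly near the start (median -9.5 over the 36 windows) and CCAAT box matches farther before it (median -65.0).

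At 48 h after 12 Gy the genes called above controls, in the fit over all genes alone, included 3 mitotic kinases, Cdc20 and securin (Pttg1). In the fit over all genes 7 of 41 rose (17.1%) and 1 fell (2.44%), beside 12.9% and 20.2% of all genes tested and 18.2% and 3.74% of the known genes in it. With known genes only, none rose and 2 fell (4.88%), beside 6.76% and 8.04%. The median log2 change was 0.19 beside 0.20 for known genes, and 0.005 beside 0.009 with known genes only. The number called was 15 without control replicate 1, 5 without control replicate 3 and 4 without replicate 3 of the irradiated group. Over all genes tested these fits called 4872 of 15681, 4035 of 15565 and 4085 of 15801, against 4995 of 15086 with all libraries. The median of the 41 genes was 0.35 beside 0.22 for known genes without control replicate 1, and 0.10 beside 0.23 without control replicate 3.

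Cenpf was the gene that fell in both fits. It had 46.8, 50.7 and 57.0 scaled CPM at 48 h, below all controls (-0.54 ± 0.14, edgeR adjusted p 0.00723, and -0.73 with adjusted p 0.00168 for known genes only). Its call held without any 1 library (adjusted p up to 0.0491). Mad2l1, a spindle checkpoint protein, passed with known genes only (-0.44, edgeR adjusted p 0.0349).

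Among the genes that rose in the fit over all genes, Nek2, a centrosome kinase, had 18.7, 24.1 and 20.4 scaled CPM in controls and 31.4, 29.0 and 31.9 at 48 h (0.55 ± 0.16, edgeR adjusted p 0.0143, against 0.122 with known genes only). Plk1, the Polo-like kinase, had 22.6, 12.0 and 10.98 in controls and 24.9, 21.9 and 26.9 at 48 h (0.67 ± 0.24, edgeR adjusted p 0.0384, against 0.159). Aurka, the centrosomal Aurora kinase, had 30.5, 19.97 and 17.4 in controls and 26.4, 33.9 and 41.3 at 48 h (0.57 ± 0.20, edgeR adjusted p 0.0348, against 0.182). The Nek2 groups were apart, whereas Plk1 and Aurka overlapped the controls through control replicate 1. The Plk1 call was lost without control replicate 2 (0.105) or 3 (0.122) or irradiated replicate 1 (0.0789) or 3 (0.106). The Aurka call was lost without control replicate 2 (0.0806) or 3 (0.108) or irradiated replicate 2 (0.0534) or 3 (0.154). Neither passed by DESeq2 (adjusted p 0.0532 for Plk1 and 0.0556 for Aurka).

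Cdc20 reached 70.9, 66.0 and 81.3 scaled CPM at 48 h (0.63 ± 0.17, edgeR adjusted p 0.0108, against 0.0745 with known genes only). Pttg1, the securin that holds separase inactive, had 198, 165 and 133 in controls and 211, 224 and 239 at 48 h (0.44 ± 0.14, edgeR adjusted p 0.0214, against 0.196). Securin is a target of the complex that Cdc20 activates. Kif20a had 43.7, 38.0 and 51.2 (0.68 ± 0.19, edgeR adjusted p 0.0121, against 0.0751) and Cdc25b 51.0, 52.5 and 63.0 (0.67 ± 0.17, edgeR adjusted p 0.00673, against 0.0533). For all 4 genes each irradiated library was above each control. The Pttg1 call was lost without control replicate 3 (0.0675) or irradiated replicate 3 (0.0666), and the Kif20a call without irradiated replicate 3 (0.0563).

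After 4 Gy, sampled at 48 h, none of the 41 genes fell and 5 rose in the fit over all genes (12.2%), beside 4.53% higher and 13.0% lower among all genes tested and 6.21% and 0.877% among the known genes in it. With known genes only, Anln alone rose (2.44%), beside 0.754% of known genes. The median log2 change of the 41 genes was 0.36 beside 0.14 for known genes (0.21 beside -0.011 with known genes only). The number called depended on single libraries: 16 without control replicate 1, 8 without replicate 3 of the 4 Gy group, and 2 without its replicate 1 or 2 or without control replicate 3. Over all genes tested, 2980 of 15681 were called without control replicate 1 and 2915 of 15803 without 4 Gy replicate 3. The fits with 2 members called gave 1661 of 15847, 1524 of 15845 and 1689 of 15565, in the order given. With all libraries 2649 of 15086 were called.

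Anln had 41.8, 61.7 and 46.4 scaled CPM after 4 Gy, all above the controls (0.84 ± 0.17, edgeR adjusted p 0.0028, and 0.70 with adjusted p 0.0394 for known genes only). Its call held without any 1 library (adjusted p up to 0.0216). Cdc25b had 56.6, 60.5 and 52.6 (0.70 ± 0.17, edgeR adjusted p 0.00969, against 0.107 with known genes only). Bub1b, the checkpoint protein BubR1, had 18.1, 14.9 and 11.5 in controls and 21.3, 25.2 and 21.6 after 4 Gy (0.60 ± 0.18, edgeR adjusted p 0.0291, against 0.219). None of these libraries overlapped the controls. Prc1 had 60.5, 66.1 and 49.1 (0.73 ± 0.23, edgeR adjusted p 0.0367, against 0.214) and Kif23 23.6, 22.9 and 18.6 (0.54 ± 0.16, edgeR adjusted p 0.0267, against 0.240).

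The calls of the last 3 genes were each lost with 1 library left out. Bub1b was lost without control replicate 2 (0.053) or 3 (0.0964) or 4 Gy replicate 1 (0.0533) or 2 (0.112). Kif23 was lost without control replicate 1 (0.0616) or 3 (0.0618) or 4 Gy replicate 1 (0.098) or 2 (0.0875). Prc1 was lost without control replicate 2 (0.0841) or 3 (0.122) or 4 Gy replicate 1 (0.0932) or 2 (0.13). By DESeq2 the adjusted p was 0.0711 for Bub1b and 0.0983 for Kif23. Without the filter on low counts 15 genes rose, among them Ccnb1 (0.57, edgeR adjusted p 0.0167), Plk1 (0.66, adjusted p 0.0206) and Cdc20 (0.46, adjusted p 0.0412). That fit called 3317 of 26299 genes tested in either direction. Anln, Prc1, Kif23 and Bub1b act at cytokinesis, the central spindle and the checkpoint. Other members with such roles did not pass after 4 Gy. Among them were Ect2 (edgeR adjusted p 0.175), Racgap1 (0.179), Kif20a (0.11), Bub1 (0.873) and Mad2l1 (0.992). The 3 comparisons with controls share the same control libraries, so their calls are not independent of each other.

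**Figure D3:**
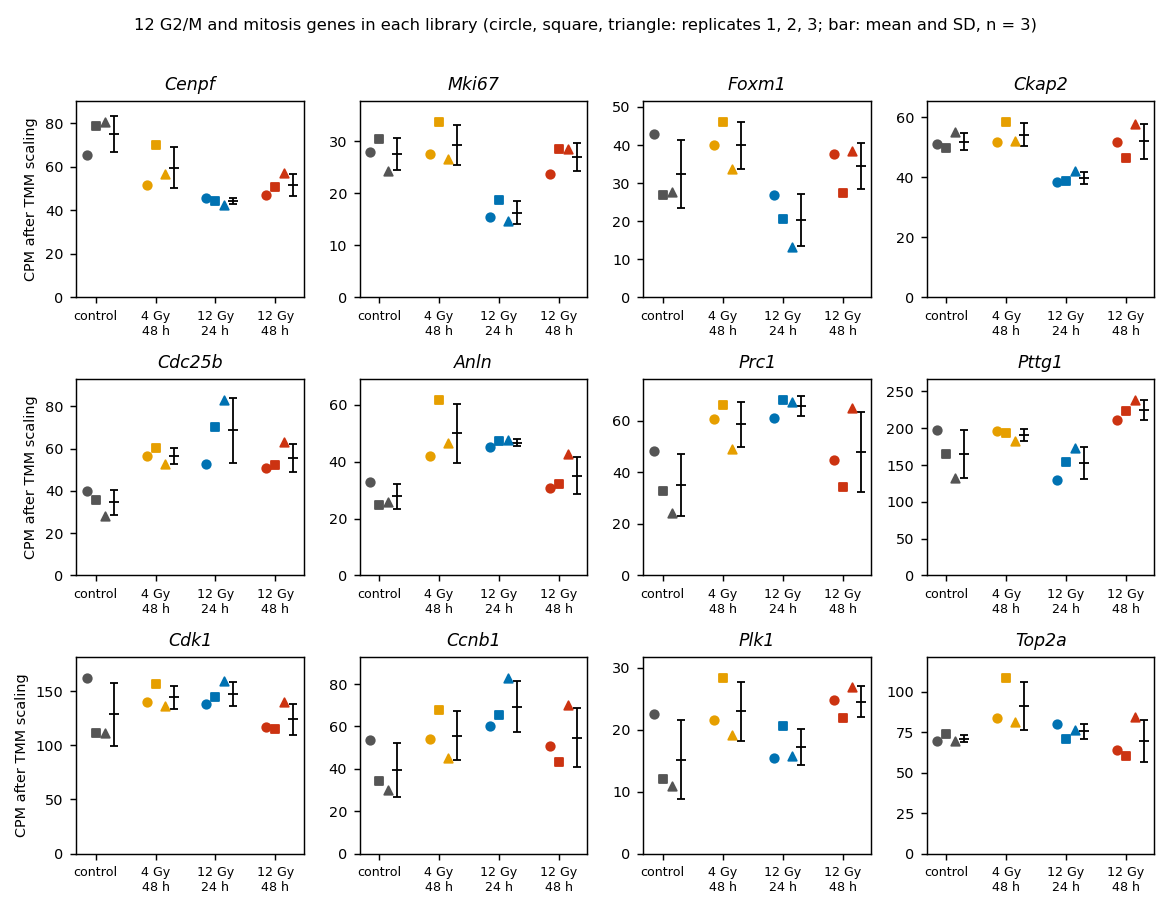
Scaled CPM of single genes (vertical axis of each panel, from 0) in the 12 libraries, by group, with 1 point per library and a bar for the mean and SD. Mki67 and Cenpf are low in all 3 libraries at 24 h, and Mki67 is back among the control values at 48 h.

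The comparison of 48 h with 24 h after 12 Gy uses no control library. With no unirradiated cells at 24 h or 48 h, time since radiation and time in culture cannot be told apart in it either. Both fits gave the same 6 calls: 5 genes were higher at 48 h (12.2%) and 1 was lower (2.44%). Beside this, 20.6% of all genes tested were higher and 11.4% lower (9.97% and 15.6% of the known genes in that fit). With known genes only, 11.1% of genes were higher and 12.6% lower. The median log2 difference of the 41 genes was 0.01, beside -0.06 for known genes. With another scaling (RLE), 4 were higher and 3 lower, and 4958 of 15086 genes tested were called in either direction.

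Mki67 had 15.4, 18.7 and 14.6 scaled CPM at 24 h and 23.8, 28.5 and 28.5 at 48 h (0.73 ± 0.16, edgeR adjusted p 0.00318, and 0.78 with adjusted p 0.00201 for known genes only). Pttg1 had 129.8, 153 and 173 at 24 h and 211, 224 and 239 at 48 h (0.56 ± 0.14, edgeR adjusted p 0.00602, and 0.61 with adjusted p 0.00279). The groups were apart in both, and both calls held without any 1 library (adjusted p up to 0.0367 and 0.0425). Foxm1 had 26.8, 20.7 and 13.1 at 24 h and 37.7, 27.5 and 38.4 at 48 h (0.77 ± 0.24, edgeR adjusted p 0.0222, and 0.81 with adjusted p 0.0165). Nek2 had 21.5, 20.7 and 19.3 at 24 h and 31.4, 29.0 and 31.9 at 48 h (0.59 ± 0.16, edgeR adjusted p 0.0116, and 0.63 with adjusted p 0.00768). Ckap2 had 38.5, 38.9 and 42.0 at 24 h and 51.5, 46.4 and 57.8 at 48 h (0.38 ± 0.13, edgeR adjusted p 0.028, and 0.43 with adjusted p 0.0153).

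Mki67, Foxm1 and Ckap2 are 3 of the 4 genes that were below controls at 24 h, and against controls at 48 h their log2 values did not pass the test (Mki67 -0.04, edgeR adjusted p 0.879, and Foxm1 0.08, adjusted p 0.808). The fourth, Cenpf, was 42.6 to 45.4 scaled CPM at 24 h and 46.8 to 57.0 at 48 h, and that difference did not pass. Ect2 went the other way, from 14.6, 14.3 and 17.5 at 24 h to 7.85, 7.13 and 12.3 at 48 h (-0.77 ± 0.24, edgeR adjusted p 0.0245, and -0.72 with adjusted p 0.0332). All 6 genes had groups that did not overlap, but they were picked by the test of this same difference, so this is no further support. The Foxm1 call was lost without replicate 1 (0.0771) or 3 (0.0699) at 48 h or replicate 2 (0.084) or 3 (0.171) at 24 h. The Nek2 call was lost without replicate 2 (0.0708) or 3 (0.0918) at 24 h, and the Ect2 call without replicate 1 (0.0916) or 2 (0.0913) at 48 h. The Ckap2 call was lost without replicate 1 (0.0721) or 3 (0.121) at 48 h, or without replicate 1 (0.094), 2 (0.198) or 3 (0.115) at 24 h. It was also lost with RLE scaling (0.31, edgeR adjusted p 0.0753), by DESeq2 (0.31, adjusted p 0.125) and without the filter on low counts (0.30, edgeR adjusted p 0.176). The number called was 3 without replicate 2 or 3 at 24 h or replicate 1 at 48 h, and 8 without replicate 3 at 48 h, of which 5 were lower. These fits called 3849 of 15858, 4132 of 15848, 3611 of 15799 and 4647 of 15801 genes tested, in the order given.

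**Figure D4:**
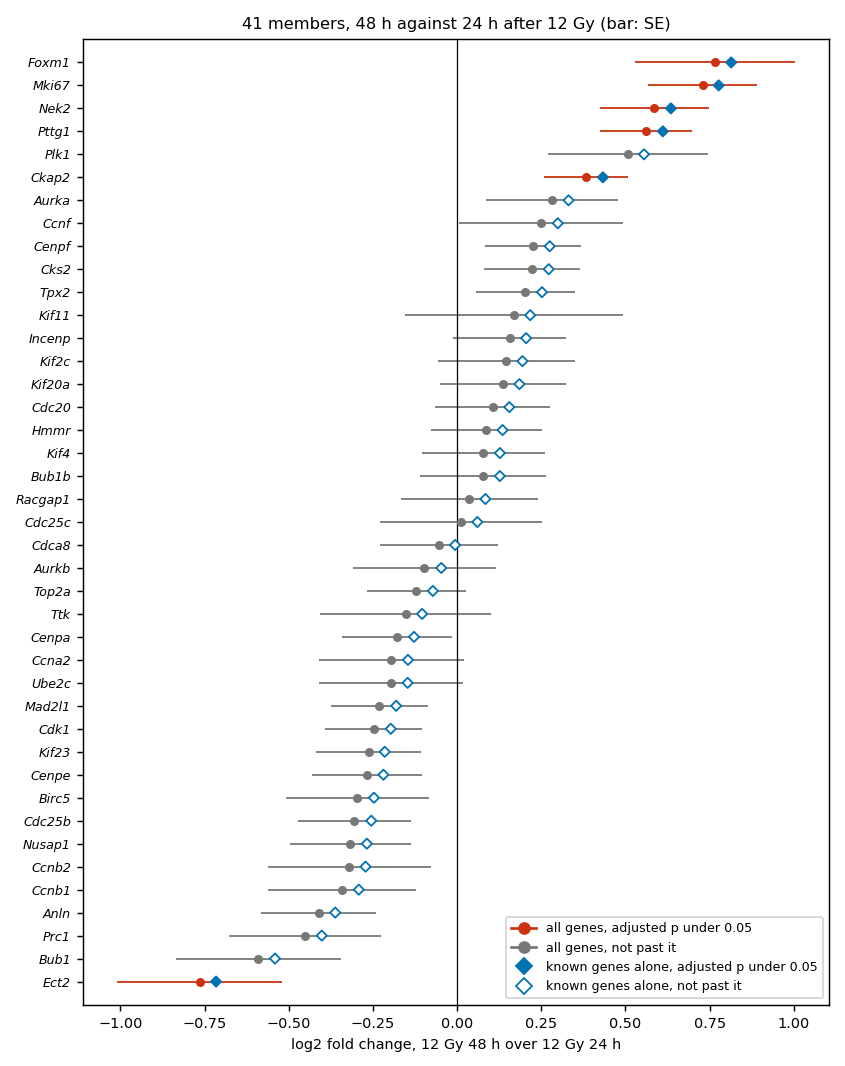
Log2 difference of each of the 41 genes between 48 h and 24 h after 12 Gy (horizontal axis, log2 units; positive is higher at 48 h), with genes by row, both fits and bars for the standard error. Foxm1, Mki67, Nek2, Pttg1 and Ckap2 lie to the right and Ect2 farthest to the left.

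At 48 h no gene of the 41 differed between 12 Gy and 4 Gy past the threshold by edgeR, in either fit, or by DESeq2. At an unadjusted p under 0.05 there were 3 genes in the fit over all genes, 5 with known genes only and 2 by DESeq2. The share of all genes under that unadjusted level was not computed, so nothing is drawn from these counts. Over all genes tested 4.69% differed past the adjusted threshold (2.19% higher and 2.49% lower after 12 Gy, or 2.79% and 1.55% of the known genes in that fit). With known genes only it was 6.13% (2.91% higher and 3.22% lower). The largest difference was that of Anln, with 41.8, 61.7 and 46.4 scaled CPM after 4 Gy and 30.6, 32.1 and 42.6 after 12 Gy (-0.51, edgeR adjusted p 0.0898). Top2a, the topoisomerase that untangles chromosomes before anaphase, had 83.6, 109 and 81.5 after 4 Gy and 64.4, 60.1 and 84.4 after 12 Gy (-0.39 ± 0.15, edgeR adjusted p 0.13). The groups overlapped in both genes, and the median over the 41 was -0.12 beside 0.05 for known genes.

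The 21 genes that passed in no comparison of the fit over all genes include the kinase at the centre of mitotic entry. Cdk1 had 162, 111 and 112 scaled CPM in controls, 139.9, 156 and 136 after 4 Gy, 138, 144 and 159.6 at 24 h and 117, 115 and 140.3 at 48 h after 12 Gy. Control replicate 1 was the highest of all 12. Top2a had 69.6, 74.0 and 69.9 in controls and 79.9, 70.8 and 76.4 at 24 h after 12 Gy (0.09 ± 0.15, edgeR adjusted p 0.646). The others were the cyclin Ccnf and the Cdk1 partner Cks2, the phosphatase Cdc25c, the kinases Aurkb and Ttk, the checkpoint genes Bub1 and Mad2l1, Ube2c (the ubiquitin-conjugating enzyme of the anaphase-promoting complex), the passenger proteins Birc5, Cdca8 and Incenp, the kinetochore motor Cenpe, the kinesins Kif11, Kif2c and Kif4, the spindle proteins Tpx2, Nusap1 and Hmmr, and Racgap1. Their log2 changes ran from -0.12 to 0.53 at 24 h after 12 Gy, from -0.26 to 0.38 at 48 h and from -0.08 to 0.46 after 4 Gy. The passenger proteins and Aurkb, their kinase, are thus all among the genes that did not pass. Without the filter on low counts Cdk1 passed at 24 h (0.35, edgeR adjusted p 0.0353) and Top2a after 4 Gy (0.43, adjusted p 0.0386).

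Of the genes that did not pass, 6 are given here that were chosen after their values were seen. Ube2c, the most abundant in reads, had 227, 122 and 109.8 scaled CPM in controls, 192, 225 and 205 at 24 h and 174, 153 and 215 at 48 h after 12 Gy (0.43 ± 0.21 at 24 h, edgeR adjusted p 0.108). Birc5, the survivin subunit of the passenger complex, had 104, 71.2 and 48.8 in controls and 92.6, 78.3 and 88.4 at 24 h (0.21 ± 0.21, edgeR adjusted p 0.446). In both genes control replicate 1 was above the irradiated libraries at 24 h and the other controls were below them. At 48 h after 12 Gy Birc5 had 63.3, 64.9 and 82.8, so control replicate 2 was above replicates 1 and 2 there. Aurkb, the kinase of that complex, had 55.9, 32.5 and 36.7 in controls and 38.8, 37.7 and 41.7 at 24 h (-0.09 ± 0.21, edgeR adjusted p 0.755). Bub1, a checkpoint kinase, had 21.7, 16.9 and 13.4 in controls, 21.8, 27.6 and 26.2 at 24 h and 18.6, 11.2 and 20.4 at 48 h after 12 Gy. Its log2 change was 0.53 ± 0.24 at 24 h (edgeR adjusted p 0.0849) and its difference between 48 h and 24 h was -0.59 ± 0.24 (adjusted p 0.0761), neither past the threshold. Kif11, the motor that pushes spindle poles apart, and Ttk, the checkpoint kinase Mps1, were thinly counted, at 4.02 to 8.17 and 5.36 to 6.88 scaled CPM in controls.

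Between replicate libraries the 41 genes moved together, by as much as the group differences. The median gene stood at 0.11, -0.22 and -0.38 (log2, against its mean over all libraries) in the 3 controls, at 0.14, 0.32 and -0.03 after 4 Gy and at -0.05, -0.13 and 0.24 at 48 h after 12 Gy. At 24 h after 12 Gy it stood at 0.03, 0.04 and 0.03. The SD over the 3 libraries was 0.25 in controls, 0.17 after 4 Gy and 0.20 at 48 h, against 0.006 at 24 h. Control replicate 1 held the highest value of its group for 30 of 41 genes, replicate 2 of the 4 Gy group for 31, and replicate 3 at 48 h for 36. At 24 h the highest values were divided 16, 9 and 16 among the replicates. With scaling by known genes only the counts were 29, 31 and 37. These figures were not computed for other genes, so the movement is not shown to be particular to the 41. What differed between these replicates was not tested.

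**Figure D5:**
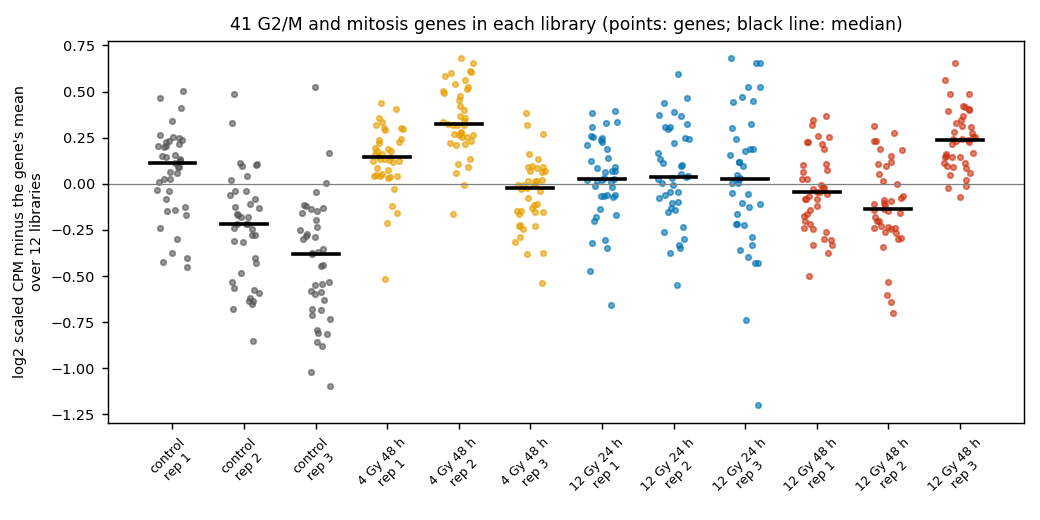
Deviation of the 41 genes from their mean over all libraries (vertical axis, log2 units) in each of the 12 libraries, with the median marked. The control, 4 Gy and 48 h groups each have medians that differ from library to library, and the 3 libraries at 24 h after 12 Gy have medians between 0.03 and 0.04.

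Another 134 genes of mitosis in 8 lists, of which 132 were tested, were counted the same way. At 24 h after 12 Gy 14 were higher (10.6%) and 6 lower (4.55%) than in controls, beside 26.5% and 3.99% of the known genes in that fit. In the fit over known genes only they were 2 (1.52%) and 12 (9.09%), beside 9.15% and 7.91%. At 48 h after 12 Gy 10 were higher (7.58%) and 7 lower (5.3%), beside 18.2% and 3.74%, or 3 (2.27%) and 14 (10.6%) with known genes only, beside 6.76% and 8.04%. In both 12 Gy comparisons with controls the more frequent direction therefore changed with the scaling. After 4 Gy 3 were higher (2.27%) and none lower, beside 6.21% and 0.877%, and none passed with known genes only, beside 0.754% and 0.57%. Between 48 h and 24 h 7 were higher (5.3%) and 13 lower (9.85%), beside 9.97% and 15.6%, or 7 (5.3%) and 10 (7.58%) with known genes only, beside 11.1% and 12.6%. Between 12 Gy and 4 Gy at 48 h 1 was higher (0.758%) and 4 lower (3.03%), beside 2.79% and 1.55%, or 1 (0.758%) and 7 (5.3%) with known genes only, beside 2.91% and 3.22%.

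Among the genes of these lists that passed in both fits, Psrc1, a microtubule regulator of the spindle, fell by 0.88 at 24 h on the log2 scale (edgeR adjusted p 3.11e-05), or by 1.11 with known genes only (adjusted p 3.57e-05). It was 0.56 higher at 48 h than at 24 h (edgeR adjusted p 0.00401), or 0.60 with known genes only (adjusted p 0.00288). Gtse1, a microtubule-associated protein that also restrains p53, fell by 0.78 at 24 h (edgeR adjusted p 0.000277), or by 1.02 (adjusted p 0.000172), and was 0.73 higher at 48 h than at 24 h (adjusted p 0.00136), or 0.78 (adjusted p 0.000975). Mki67 and Foxm1 had the same pair of directions. Spc25 and Cenpq, of the kinetochore, were lower than controls at 24 h (-0.55, edgeR adjusted p 0.00257, and -0.53, adjusted p 0.00439). These values were -0.79 (edgeR adjusted p 0.000533) and -0.77 (adjusted p 0.00106) with known genes only. Both were also lower at 48 h (-0.39, edgeR adjusted p 0.0335, and -0.59, adjusted p 0.00389), or -0.57 (adjusted p 0.00558) and -0.78 (adjusted p 0.0012) with known genes only. Anapc5, a subunit of the anaphase-promoting complex, was higher at 24 h (0.92, edgeR adjusted p 3.56e-05, and 0.69 with adjusted p 0.00157 for known genes only) and at 48 h after 12 Gy (0.61, adjusted p 0.00277, and 0.43 with adjusted p 0.0326). Anapc11, of the same complex, was lower at 48 h (-0.33, edgeR adjusted p 0.0218, and -0.51 with adjusted p 0.00195). The rises of Cdc26, Anapc4, Cdc27 and Anapc1 at 24 h passed in the fit over all genes and not with known genes only (adjusted p 0.254, 0.249, 0.12 and 0.414).

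Some counts may include reads of other genes, since the strandedness of counting is not given in the sources used here. In the GENCODE annotation (GRCm38) 11 of the 41 genes overlap another coding gene: Ccna2 with Exosc9, Cdc20 with Elovl1, Cdc25b with Spef1, Kif20a with Cdc23, Prc1 with Rccd1, Foxm1 with Tex52 and Gm44596, and also Cdc25c, Kif4, Ube2c, Cdca8 and Nusap1. Pseudogenes are named for Ccnb1, Ccnb2 and Kif4. Cenpf, Mki67, Ckap2, Anln, Pttg1, Nek2 and Ect2 overlap no other coding gene there.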

How the data were processed

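RNA sequencing gave 12 libraries in 4 groups of 3. Per the submitters' processing notes, cutadapt 1.9 and FastQC were used. Aligner, genome build, platform and strandedness were not given in the sources used here. Read counts per gene and CPM were deposited by the authors. The deposited CPM differed from recomputed values by at most 4.78e-06, and recomputed CPM were used for the marker genes. From the counts, 11 damaged lines were dropped, genes were filtered (filterByExpr) and scaled (TMM), and edgeR 4.0.16 (R 4.3.3, limma 3.58.1) fitted 1 mean per group over all 12 libraries, with two-sided quasi-likelihood tests, Benjamini-Hochberg adjustment over 15086 genes and a threshold of 0.05. The rule for giving values per library was 8 chosen members and up to 16 members past the threshold by smallest adjusted p. For most of them the text gives only some of the groups, mainly those of a comparison with a call. The fit was tested on simulated data. Alternatives were known genes only, no filter, RLE scaling, DESeq2 1.42.0, a replicate block and leaving out each library. The members and lists were chosen with earlier results of these data known.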

Additional observations from a re-analysis of the deposited data

Results flagged for a closer look

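For 6 of the 41 genes the level differed between 24 h and 48 h after 12 Gy by the edgeR test of that difference. Foxm1 was 0.77 higher at 48 h on the log2 scale, Mki67 0.73, Nek2 0.59, Pttg1 0.56 and Ckap2 0.38. Ect2 had a log2 difference of -0.77. Of these, the Mki67 and Pttg1 calls held without any 1 library.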

How the results depend on the processing

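With known genes only, the number of the 41 genes called fell from 15 to 7 at 24 h after 12 Gy, from 8 to 2 at 48 h and from 5 to 1 after 4 Gy, and the median log2 change moved from 0.20 to -0.039 at 24 h and from 0.19 to 0.005 at 48 h. After 4 Gy, 15 of the 41 genes were called without a filter and 3 by DESeq2, beside 3317 of 26299 and 1956 of 15086 genes tested. Leaving out 1 library at a time gave 11 to 22 called genes at 24 h (median 0.16 to 0.41), 4 to 15 at 48 h (0.10 to 0.35), 2 to 16 after 4 Gy (0.25 to 0.48), 3 to 8 between 48 h and 24 h (-0.174 to 0.043) and 0 between the doses (-0.25 to -0.008). Over all genes, 15499 to 15860 of them tested, these fits called 7081 to 7860 at 24 h, 3968 to 4872 at 48 h and 1524 to 2980 after 4 Gy. They called 3368 to 4647 between 48 h and 24 h and 77 to 431 between the doses. Replicate numbers did not pair the libraries: deviations of same-numbered libraries correlated at -0.111 to 0.125, and of others at -0.125 to 0.167. A replicate block gave 14, 7, 4, 6 and 0 called genes of the 41, beside 7096, 4713, 2384, 4556 and 514 of 15086 genes tested. Among 66 single-gene results no called value changed direction, and 21 values that missed the threshold changed sign. Within these 66 chosen results, known genes only ended 19 calls and added 1, DESeq2 ended 6, RLE scaling 1, and no filter ended 2 and added 7. Leaving out 1 library ended 51 and added 9, with a call counted once for each library concerned. Over all 41 genes, no filter moved the number called from 15 to 20 at 24 h after 12 Gy and from 8 to 12 at 48 h. It moved from 5 to 15 after 4 Gy and from 6 to 8 between 48 h and 24 h. At 15 to 1057 reads per library, changes in the least abundant genes are the least precise.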

Other observations

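Cenpf and Mki67 have the longest coding transcripts of the 41 genes in GENCODE (11130 and 10061 nt). Across the 41 genes, transcript length and log2 change against controls had a Spearman correlation of -0.21 at 24 h and -0.44 at 48 h after 12 Gy and of -0.11 after 4 Gy, where all 9785 known genes with a length gave 0.02, 0.18 and 0.12. It was -0.44 between 12 Gy and 4 Gy at 48 h (0.11 over known genes), and between 48 h and 24 h after 12 Gy it was 0 to the second decimal (0.14 over known genes). These correlations are across genes, which share their libraries, and are given as a description.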
